A study of Rattus norvegicus with 10 samples.

Results

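Among 5 cultures of wild-type RCS cells, WT 3 and WT 4 stood apart from WT 1, WT 2 and WT 5, and the differences between these 2 sets of cultures are described here across the transcriptome. RCS cells come from a cartilage tumour of the rat and lay down a matrix like that of cartilage. The sets were chosen by the measured values themselves: they follow the first principal component, which held 72.0% of the variance of the 5 WT libraries and placed WT 3 and WT 4 at 22.5 and 21.4 and WT 1, WT 2 and WT 5 at -16.9, -16.9 and -10.2. Because the same values chose the sets, no test was made between them, and counts, differences and folds are a description. Of 10184 genes in the table, 8498 had a mean over the 5 WT libraries at least 1 above the lowest value and were used. That limit lies near 10.7 normalised reads, that is, a library's reads over its size factor.

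The series compared untreated WT cells with cells of the same line in which ARSL, the gene of arylsulfatase L, an enzyme of the sulfatase family, was knocked out, with 5 libraries each. All were grown in DMEM with fetal bovine serum and collected 48 h after seeding. The labels call the libraries of a genotype biological replicates and give neither a culture day nor a clone, and cells of 1 line stand behind every library. The labels name no batch. No row carried the symbol of the targeted gene, which was not analysed here.

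Cartilage cells are known for laying down a matrix of collagen II, IX and XI fibrils filled with aggrecan, and their secretory pathway is built around folding and exporting these large proteins. Cells that leave the division cycle lower the transcripts of DNA replication and mitosis, many of which are driven by E2F factors or by factors that act through CHR and CCAAT elements. Chondrocyte growth and matrix output are regulated together in the growth plate, where dividing and maturing cells lie in separate zones. Cell division and matrix itself were not measured here, only transcripts. In bulk cultures, fewer cells in a state and less RNA per cell cannot be told apart.

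The 5 WT libraries held 2118490 to 2591819 reads over the listed genes. WT 3 and WT 4 resembled each other, with a chi-square of 2.37 per degree of freedom (genes with 20 or more reads in the 2 libraries compared), and had 15.8 to 21.3 with the other 3. WT 1 and WT 2 had 1.85 with each other, and WT 5 had 4.49 and 3.83 with them. Each value exceeds the noise of sampling reads, which does not show whether the libraries came from separate cultures. The libraries were counted as separate samples, as the labels call them biological replicates. WT 3 and WT 5 were the shallowest WT libraries and WT 1 and WT 4 the deepest. Median values over the genes used ranged only from 6.976 to 6.986 on the deposited scale.

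The cells were checked against cell type markers. Of 15 chondrocyte markers, 13 had a row, and their summed level was 90902 and 90754 normalised reads in WT 3 and WT 4 and 51993, 52353 and 55664 in WT 1, WT 2 and WT 5. The chondrocyte label therefore held in both sets. Macrophage markers with a row, Cd14 and Cd68 of 14 listed, summed to 19.7 and 19.1 normalised reads in the pair and 13.1, 11.6 and 16.9 in the others. Of 10 endothelial markers Vwf alone had a row, with 44.9 and 39.2 normalised reads in WT 3 and WT 4 and 21.8, 13.6 and 39.1 in WT 1, WT 2 and WT 5. Of 10 fibroblast markers Pdgfra and Thy1 had a row and summed to 49.2 and 26.8 in the pair and 12.2, 34.8 and 23.3 in the others. The 2 muscle markers with a row summed to 24.1 and 15.3 in the pair and 18.3, 21.3 and 27.5 in the others, and the 3 adipocyte markers to 73.3 and 64.1 and 58.4, 46.5 and 31.7. Osteoblast markers with a row, 5 of 10, summed to 1518 and 1446 in the pair and 1081, 1115 and 1075 in the others, and Runx2, which chondrocytes also express, was the separated member. Markers without a row, such as Sox9, Ptprc, Pecam1, Col1a1 and Myod1, were not analysed here.

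A gene is called separated where WT 3 and WT 4 both lay above, or both below, the 3 other WT libraries, with at least 0.5 between the nearest values on the deposited log2-like scale. By this measure 364 genes, 4.28% of those used, were higher in WT 3 and WT 4, and 315, 3.71%, were lower. Without a demand on the gap, 2338 genes (27.5%) lay above without overlap and 2438 (28.7%) below. These shares follow from how the sets were chosen, and nothing is read from them. The separated genes had a median difference of 0.88 upward and 0.79 downward, or a median of 2.21-fold and 1.96-fold in normalised reads. The largest folds were 26.1 upward, in Oasl2, and 9.21 downward, in Rasl2-9, a gene named after its value was seen. Both genes lay close to the lowest value of the table on their low side, which makes the sizes of these folds uncertain. A difference of at least 1 was found in 104 of the higher and 48 of the lower genes. WT 5 was the library nearest to the pair in 210 of the 364 higher and 177 of the 315 lower genes. For 22 of the higher genes the mean of the other 3 libraries, and for 5 of the lower genes the mean of the pair, was below the limit for use, so these passed only through their high side. Each separated gene had a read in at least 1 library of its low side. In what follows, normalised reads before the word against are those of WT 3 and WT 4, in that order, and those after it are of WT 1, WT 2 and WT 5. Folds are ratios of the 2 means. The gene lists overlap, so that 1 gene can count in several. Counts of separated members in a list stand beside 4.28% higher and 3.71% lower over all genes used. Counts without overlap stand beside 27.5% above and 28.7% below.

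The thresholds passed between genes of nearly equal values. Rps27a and Ptprj, with WT means of 11.7 and 11.2 normalised reads, were the lowest named genes used, and Vwa5al1 and Tssk6, with 10.9 and 11.3, the highest left out. At the gap of 0.5, Pcmtd2 (0.50) lay just inside on the higher side and Rhbdl2 (0.4978) just outside. On the lower side Tcea1 (0.5007) lay inside and Uqcr10-ps1 (0.4995) outside.

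**Figure D1:**
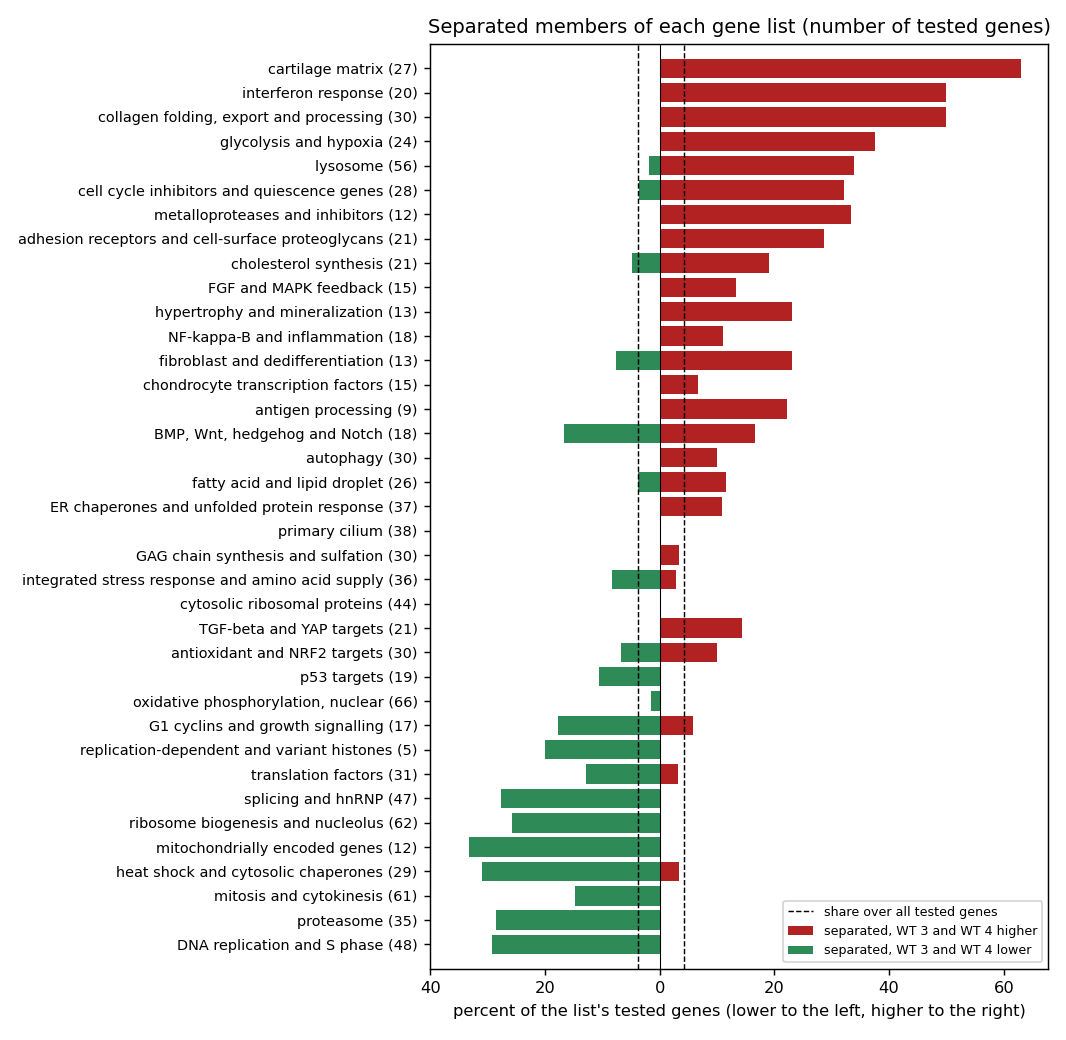
Percent of each gene list's tested members that were separated between WT 3 and WT 4 and the other 3 WT libraries, higher to the right and lower to the left, with the share over all genes used (4.28% and 3.71%) as dashed lines. Cartilage matrix, interferon response and collagen folding lead on the right, and heat shock, DNA replication, proteasome and mitochondrially encoded genes reach farthest to the left.

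The genes of DNA replication were lower in WT 3 and WT 4. Of 48 tested members 14 were separated downward and 0 upward, 43 lay below without overlap, and the median difference was -0.63 against -0.0027 over all genes used. Prim1, the catalytic subunit of the primase that starts each new DNA strand, had 121 and 126 normalised reads in WT 3 and WT 4 and 425, 389 and 302 in WT 1, WT 2 and WT 5, 3.00-fold lower. Mcm5, a subunit of the replicative helicase, had 79.9 and 59.3 in the pair and 216, 205 and 203 in the others, 2.99-fold lower. E2f1, the transcription factor that drives S-phase genes, had 190.4 and 176 in the pair and 446, 515 and 388 in the others. In each of the 3 genes WT 5 was the lowest of the other libraries but stayed clear of the pair. E2f2, a related factor named after its value was seen, was the 1 member that lay above without overlap, with a difference of 0.52.

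S-phase genes are known for E2F elements near their start sites, and the promoter of the separated replication gene with the most such letters is shown for that reason. Mcm6, another subunit of the helicase, differed by -0.99 in WT 3 and WT 4, with 299.8 and 237 normalised reads in the pair and 549, 603 and 555 in the others. Its promoter in RefSeq, chr13:42404303-42404602 on the minus strand of GRCr8, runs from 250 bases before to 50 bases after the start, with capitals at TTCCCGC or TTGGCGC or TTCGCGC or TTGCCGC on either strand:
Mcm6: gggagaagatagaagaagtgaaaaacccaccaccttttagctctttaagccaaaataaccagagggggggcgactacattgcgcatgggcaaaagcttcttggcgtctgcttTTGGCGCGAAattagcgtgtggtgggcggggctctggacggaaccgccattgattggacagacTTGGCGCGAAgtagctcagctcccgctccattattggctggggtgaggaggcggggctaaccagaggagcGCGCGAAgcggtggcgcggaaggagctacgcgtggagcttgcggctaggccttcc
The window held 5 such matches, overlapping ones counted apart. TTGGCGC overlaps the reverse complement of TTCGCGC where both are read, and it shares TTGG with ATTGG, the reverse complement of CCAAT. E2F letters were found in 9.52% of all 33469 RefSeq promoters of this length, in 19.2% of the 6542 matched to genes used and in 30 of the 42 matched to the replication list. Because fewer than 80% of the genes used had a promoter, the share over them, here and below, is incomplete. A match is a description of the letters and not a site in use.

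Transcripts of mitosis and cytokinesis were lower too. Of 61 tested members 9 were separated downward and 0 upward, 53 lay below without overlap, and the median difference was -0.51. Hmgb2, a chromatin protein most abundant in dividing cells, had 73.3 and 124 normalised reads in WT 3 and WT 4 and 480.3, 415 and 269 in WT 1, WT 2 and WT 5, 3.93-fold lower and the lower gene with the largest difference, -1.63. Tubb4b, a beta-tubulin of microtubules, had 615 and 752 in the pair and 1727, 1940 and 1290 in the others. Spc24, a kinetochore subunit, had 204 and 219.9 in the pair and 534, 511 and 465 in the others. Hmgb2 and Tubb4b belong to families with near-identical copies, and the sources used here do not say how shared reads were counted, so their levels are uncertain. Widely used markers of dividing cells were less sharply set apart. Mki67, a protein of the surface of mitotic chromosomes, had 298 and 309.7 in the pair and 582, 549.7 and 325 in the others, so that WT 5 lay almost at the level of the pair. Top2a, the topoisomerase that untangles sister chromatids, showed the same order, with 2067 and 2455 against 3652, 3555 and 2632.

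Mitotic genes often carry CCAAT boxes and CHR elements, and the promoter of Hmgb2 is shown because this gene had the largest difference of the list and no separated member held more of these letters. It lies at chr16:37723901-37724200 on the minus strand of GRCr8 in RefSeq, and capitals mark CCAAT or TTTGAA on either strand:
Hmgb2: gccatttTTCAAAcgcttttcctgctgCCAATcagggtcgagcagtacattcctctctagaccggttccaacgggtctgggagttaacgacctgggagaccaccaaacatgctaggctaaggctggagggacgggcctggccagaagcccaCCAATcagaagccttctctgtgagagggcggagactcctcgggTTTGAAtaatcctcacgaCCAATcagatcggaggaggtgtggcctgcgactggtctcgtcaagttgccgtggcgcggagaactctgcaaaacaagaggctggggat
Its window held 3 CCAAT and 2 TTTGAA matches. CCAAT was found in 37.5% of all RefSeq promoters and 39.2% of those of genes used, and TTTGAA in 18.3% and 11.9%. In the 54 matched promoters of the mitosis list, 42 held CCAAT and 38 held TTTGAA.

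The 20 largest lower differences also held genes outside these lists. Ezh2, the histone methyltransferase of Polycomb repression, had 336 and 324 normalised reads in WT 3 and WT 4 and 948, 1068 and 674 in WT 1, WT 2 and WT 5, 2.72-fold lower. Nasp, a histone chaperone, had 126 and 139.6 in the pair and 373, 345 and 325 in the others. Mis18a, of a complex needed for loading of the centromeric histone, was 3.01-fold lower. Cenpu, a kinetochore protein, was 2.84-fold lower, and Nup85, a scaffold subunit of the nuclear pore, 2.95-fold. Of 5 tested histone genes 1 was separated, H2az1, a variant of histone H2A, with 39.4 and 24.9 in the pair and 100.2, 93.9 and 80.3 in the others (median of the list -0.19, and -0.34 without WT 5 and -0.12 without WT 1). The means of this short list put WT 5 (-0.158) close to WT 3 (-0.182).

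Genes linked to growth and entry into the cycle, both drivers and an opponent of Myc, went both ways. Among 17 genes of G1 cyclins and growth signalling, 3 were separated downward and 1 upward, with a median difference of -0.14. Odc1, the first enzyme of polyamine synthesis, had 221 and 274 normalised reads in the pair and 612, 727 and 647 in the others, 2.67-fold lower. Cdk4, the kinase partner of D-type cyclins, had 124 and 96.6 against 275, 236 and 199.8. Cdc25a, the phosphatase that activates cyclin-dependent kinases, had 113 and 118 against 235, 230.3 and 205. The D-type cyclin Ccnd1 overlapped between the sets, with 91.9 and 100.4 in WT 3 and WT 4 and 63.6, 66.8 and 156 in WT 1, WT 2 and WT 5. Its order of libraries thus did not follow the sets. Mxd4, which competes with Myc for its partner Max, was higher, with 221 and 191 in the pair and 66.3, 72.6 and 114 in the others.

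Genes tied to cell cycle exit were mostly higher, although the best known inhibitors were not separated. Of 28 tested inhibitors and quiescence genes 9 were separated upward and 1 downward, 20 lay above without overlap, and the median difference was 0.50. Txnip, a thioredoxin-binding protein that limits glucose uptake, had 572 and 651 normalised reads in WT 3 and WT 4 and 213, 199 and 136 in WT 1, WT 2 and WT 5, 3.35-fold higher. Pdcd4, an inhibitor of translation initiation, had 572 and 529.6 in the pair and 156, 175 and 208 in the others. Ypel3, a growth-suppressing gene, had 212 and 208 against 64.5, 47.4 and 78.2. These 3 genes were named as separated, so they do not overlap between the sets. Klf4, a zinc-finger factor, was the member separated downward, with 158 and 126 in the pair and 246, 291 and 254 in the others. The inhibitors of cyclin-dependent kinases pointed in different directions. Cdkn1a, the p53-induced p21, was lower in the pair, at 318 and 369 against 579, 626 and 488. Cdkn1b, p27, had 344 and 314 in the pair and 262, 237 and 207 in the others. Cdkn1c, p57, had 27.4 and 19.1 against 14.0, 6.78 and 11.6. Cdkn1b and Cdkn1c lay above without overlap but short of the gap of 0.5.

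The cartilage matrix was higher throughout in WT 3 and WT 4. All 27 tested members lay above the other 3 WT libraries without overlap, 17 were separated, and the median difference was 0.84. Col2a1, the chain of collagen II, had 3987 and 3945 normalised reads in WT 3 and WT 4 and 2373, 2330 and 2246 in WT 1, WT 2 and WT 5, 1.71-fold higher. Col9a2, a chain of the collagen IX that coats collagen II fibrils, had 8845 and 8765 in the pair and 4153, 4203 and 4534 in the others. Col11a1, a chain of the collagen XI at the fibril core, had 15273 and 15001 against 7130, 6783 and 7996, 2.07-fold higher. Within each collagen the pair agreed closely while WT 5 stayed with WT 1 and WT 2. Acan, the core protein of aggrecan, was higher by less, with 4707 and 4955 in the pair and 3437, 2812 and 3520 in the others, and was not separated.

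Matrix proteins that do not build the fibrils were also separated. Thbs1, the matricellular thrombospondin-1, had 931 and 968 normalised reads in the pair and 235, 247 and 391 in the others, 3.26-fold higher. Bgn, the small leucine-rich proteoglycan biglycan, had 186 and 186 against 50.6, 48.4 and 52.9. Ecrg4, a secreted peptide precursor, had 11136 and 10800 against 4696, 4578 and 4589. Cnmd, chondromodulin, a cartilage inhibitor of vessel growth, had 12060 and 11446 in the pair and 5087, 5261 and 5639 in the others. The 20 largest higher differences held 2 more genes of secreted proteins. Emilin1, an elastic-fibre glycoprotein, had 411 and 418 in the pair and 79.3, 106 and 155 in the others, 3.66-fold higher. Islr, a secreted protein with leucine-rich repeats, had 565 and 495 against 148, 152 and 179.7.

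Genes that fold, modify and export collagen were higher with it. Of 30 tested members 15 were separated upward and 0 downward, 24 lay above without overlap, and the median difference was 0.63. Pcolce, which enhances removal of the collagen C-propeptide, had 141 and 139 normalised reads in WT 3 and WT 4 and 14.0, 29.0 and 58.1 in WT 1, WT 2 and WT 5, 4.15-fold higher. P4ha1, the catalytic subunit of the prolyl 4-hydroxylase that stabilises the triple helix, had 1325 and 1182 against 459, 513 and 438. Loxl2, a lysyl oxidase that begins cross-links, had 99.6 and 121 against 21.8, 19.4 and 37.0. The list of endoplasmic reticulum chaperones and the unfolded protein response had 4 of 37 members higher, 0 lower and a median of 0.11. Its separated members included Crebrf, a regulator in the unfolded protein response, with 282 and 279 in the pair and 88.9, 92.9 and 93.0 in the others. The disulfide isomerase Pdia6 had 2200 and 2312 against 1232, 1203 and 1194. Ero1a, the oxidase that recharges such isomerases, had 118 and 109 against 57.5, 65.8 and 57.1.

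The enzymes that build sulfated sugar chains held separated genes at a share near the 4.28% over all genes used. Of 30 tested genes of glycosaminoglycan synthesis and sulfation 1 was separated, 13 overlapped between the sets, and the median difference was 0.10 (0.05 without WT 5). That gene was Ext2, a heparan sulfate polymerase, with 665 and 609 normalised reads in the pair and 366, 364 and 392 in the others. Matrix proteases and their inhibitors held 4 separated members of 12, all higher, with a median of 0.49. Adamts4, an aggrecan-cleaving protease, had 26.3 and 38.2 in the pair and 8.72, 3.87 and 3.17 in the others. The latter are close to the table's floor and below the limit for use, so Adamts4 passed only through its level in the pair. Htra1, a secreted serine protease, had 177 and 151 against 82.8, 64.8 and 71.9. Htra3, a related one, had 71.1 and 81.3 against 26.2, 31.9 and 34.9. Among 21 adhesion receptors and cell-surface proteoglycans 6 were separated upward, 0 downward, and the median was 0.43. Bsg, basigin, a chaperone of lactate transporters, had 3681 and 3438 in the pair and 1396, 1347 and 1587 in the others. The collagen receptors Ddr2 and Itga10 were 2.07-fold and 2.06-fold higher.

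Of 15 tested chondrocyte transcription factors 1 was separated, a share not far from the 4.28% over all genes used. It was Runx2, which promotes chondrocyte maturation, with 745 and 651 normalised reads in WT 3 and WT 4 and 358, 395 and 329.8 in WT 1, WT 2 and WT 5 (median of the list 0.26). In the list of hypertrophy and mineralization 3 of 13 were separated, all higher, with a median of 0.31. Enpp1, which makes pyrophosphate, had 163 and 141 in the pair and 38.4, 64.8 and 37.0 in the others. Vegfa, the vessel growth factor, had 128 and 149 against 54.0, 45.5 and 63.4. Spp1, osteopontin, had 197 and 226 against 89.8, 77.4 and 121. The fibroblast and dedifferentiation list was split, with 3 of 13 higher and 1 lower and a median of 0.27, which was 0.095 without WT 3 and 0.44 without WT 4. Its higher members were the matrix genes Loxl2, Col6a3 and Fbln1, and its lower one the calcium-binding S100a11, with 265 and 260.0 in the pair and 457, 398 and 413 in the others. The means of this list placed WT 5, at 0.293, near WT 3 and WT 4, at 0.377 and 0.36, and WT 1 and WT 2 at 0.00725 and 0.0202.

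**Figure D2:**
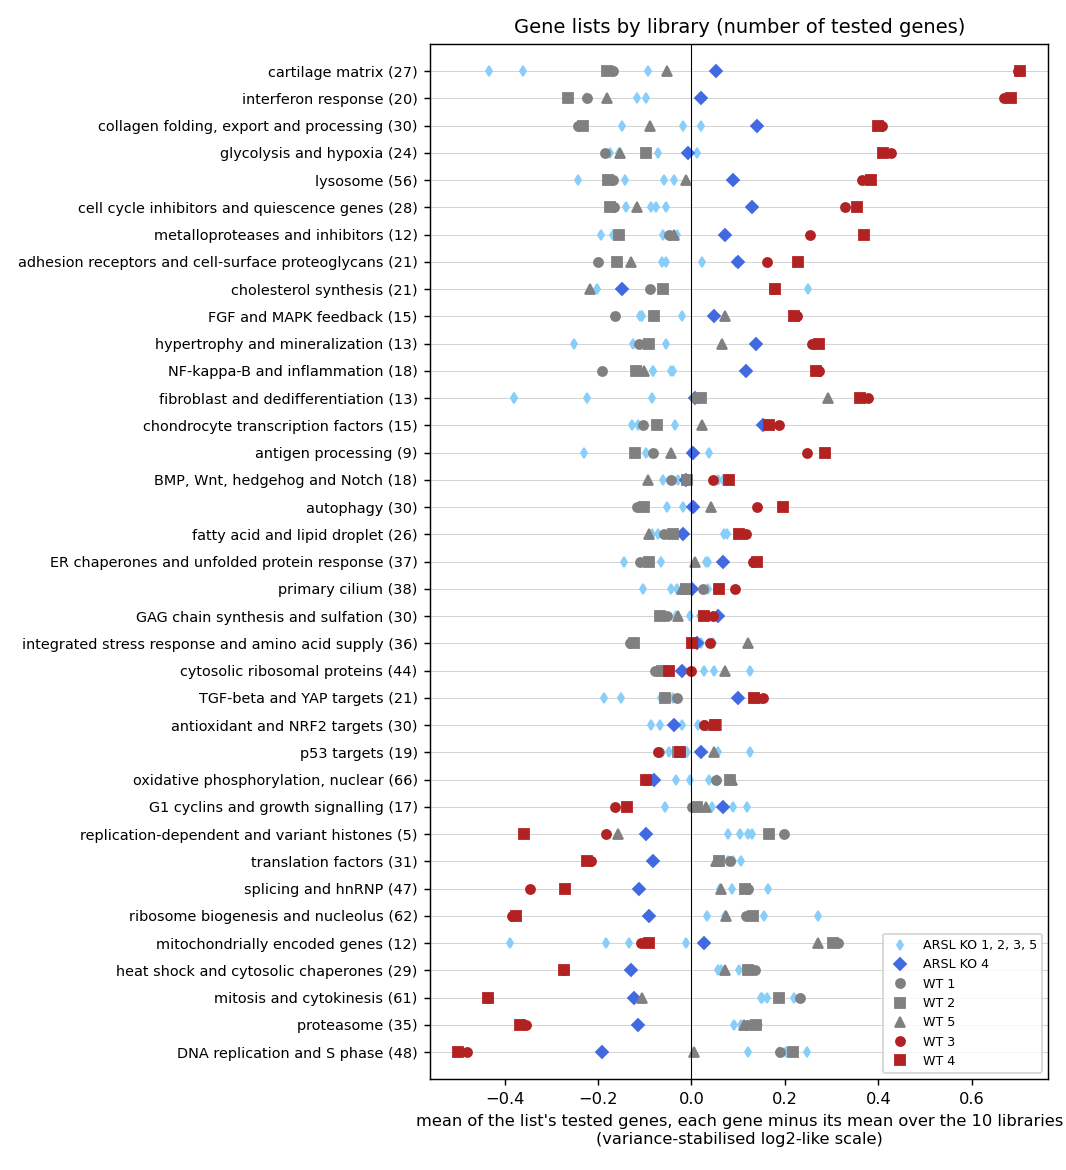
Mean of each gene list in each of the 10 libraries, on the deposited log2-like scale after each gene's mean over the 10 libraries was taken off (horizontal axis), with lists in order of their median difference (vertical axis). WT 3 and WT 4, in red, stand at the outer end of the cartilage matrix list (0.699 and 0.704) and of DNA replication (-0.48 and -0.499), and ARSL KO 4, in dark blue, lies between them and the other KO libraries in both.

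Lysosomal genes were higher as a broad group. Of 56 tested members 19 were separated upward and 1 downward, 43 lay above without overlap, and the median difference was 0.51. Gaa, the acid glucosidase that breaks down glycogen, had 1429 and 1315 normalised reads in WT 3 and WT 4 and 406, 470.4 and 578 in WT 1, WT 2 and WT 5, 2.83-fold higher. Tpp1, a lysosomal peptidase, had 304 and 249.5 against 77.6, 79.4 and 98.3. Igf2r, the receptor that carries hydrolases to the lysosome, had 1638 and 1697 against 655, 606 and 733. Both hydrolases and the receptor that sorts them were thus higher. The separated lower member was Atp6v1b2, a subunit of the proton pump, with 265 and 267 against 420.1, 403 and 410.1. Autophagy held 3 separated members of 30, all higher, beside 4.28% of all genes used, with a median of 0.21. Bnip3l, a receptor for removal of mitochondria, had 672 and 569 against 246, 234 and 267. Bnip3, its relative, had 144 and 144 against 34.0, 51.3 and 60.3. Map1lc3a, a protein of the autophagosome membrane, had 522 and 534 against 254, 260.3 and 346.

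Lysosomal genes are known for the E-box CACGTG, which TFEB and related factors bind, and the promoter of Lamp1, a main protein of the lysosomal membrane, is shown because it held the most such letters of the separated members. Lamp1 differed by 1.11, with 4397 and 3948 normalised reads in the pair and 1876, 1920 and 1941 in the others. The RefSeq promoter lies at chr16:83075014-83075313 on the minus strand of GRCr8, with CACGTG in capitals:
Lamp1: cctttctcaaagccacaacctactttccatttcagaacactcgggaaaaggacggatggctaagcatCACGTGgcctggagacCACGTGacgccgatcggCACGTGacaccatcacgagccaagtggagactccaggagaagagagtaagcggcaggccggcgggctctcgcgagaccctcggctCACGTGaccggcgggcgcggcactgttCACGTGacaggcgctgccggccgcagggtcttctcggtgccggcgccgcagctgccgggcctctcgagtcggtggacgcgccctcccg
It held 5 matches, and 6.42% of all RefSeq promoters of this length and 10.5% of those of genes used held at least 1. Tfeb itself, named after its value was seen, differed by -0.10. No share is given for the lysosome list, because only 43 of its 56 promoters, under 80%, were matched. The same letters were in 21 of the 58 matched promoters of the ribosome biogenesis list, whose genes were lower.

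Interferon-response genes were higher and included Oasl2 and Usp18, with the largest folds (26.1 and 24.4) of all separated genes. Both had a mean below the limit for use in WT 1, WT 2 and WT 5 (1.90 and 5.27 normalised reads) and passed only through their level in the pair. Of 33 members with a row 20 passed the limit for use. Of these 20 tested members 10 were separated upward and 0 downward, 17 lay above without overlap, and the median difference was 0.81. Members weak in WT 1, WT 2 and WT 5 could pass the limit only by being high in the pair, so these counts and this median may lean upward. Ifi27, an interferon-induced membrane protein, had 1042 and 1032 normalised reads in WT 3 and WT 4 and 153, 159.7 and 186 in WT 1, WT 2 and WT 5, 6.24-fold higher and the higher gene with the largest difference, 2.39. Usp18, which removes ISG15 and dampens interferon signalling, had 140.0 and 118 against 3.49, 3.87 and 8.46. Stat2, a transducer of type I interferon, had 283 and 342 against 70.6, 71.6 and 74.0. These 3 genes were named as separated, so a gap between the groups is given by that choice. Oasl2, an antiviral oligoadenylate synthetase-like protein, had 35.0 and 64.1 against 2.62, 0.968 and 2.11. Usp18 and Oasl2 lay close to the table's floor outside the pair, which makes the sizes of their folds uncertain, and the Oas family holds similar copies. Irf1, another mediator of the response, was not separated and, named after its value was seen, differed by 0.23.

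The promoter of Ifi27 is shown because interferon-stimulated genes are bound by ISGF3 through an element whose core is TTTC, any 2 bases and TTTC. It lies at chr6:128355062-128355361 on the plus strand of GRCr8 in RefSeq, with that pattern, read on either strand, in capitals:
Ifi27: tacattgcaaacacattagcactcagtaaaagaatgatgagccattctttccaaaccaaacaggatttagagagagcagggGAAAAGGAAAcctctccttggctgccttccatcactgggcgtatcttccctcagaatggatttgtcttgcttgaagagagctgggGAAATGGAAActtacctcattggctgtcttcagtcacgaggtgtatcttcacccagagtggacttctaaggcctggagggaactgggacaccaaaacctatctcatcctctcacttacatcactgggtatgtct
The pattern occurred at 2 places in this window. It was found in 3.92% of all RefSeq promoters, in 2.66% of those of genes used and in 10 of the 16 matched promoters of the interferon list. Stat2 had no match, which says only that these letters are not in its window.

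Immune genes outside that list were partly higher. Cxcl10, an interferon-induced chemokine, had 142 and 135 normalised reads in the pair and 12.2, 17.4 and 17.97 in the others, 8.73-fold higher. C1s, a protease of the first complement component, had 60.2 and 70.8 against 5.23, 6.78 and 2.11. In WT 1, WT 2 and WT 5 it lay below the limit for use, so it passed only through its level in the pair. Cxcl10 and C1s were the 2 separated members, both higher, among 18 of NF-kappa-B and inflammation, whose median was 0.30 (0.20 without WT 3). In antigen processing 2 of 9 were separated, both higher, with a median of 0.23 (0.37 without WT 3). B2m, the light chain of MHC class I, had 2405 and 2208 against 1046, 1045 and 1098. Tapbp, which loads class I with peptide, had 185 and 204 against 88.0, 89.0 and 119. Cd14 and the other macrophage marker stayed at the low levels given above, and any part of immune cells in these values was not tested.

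**Figure D3:**
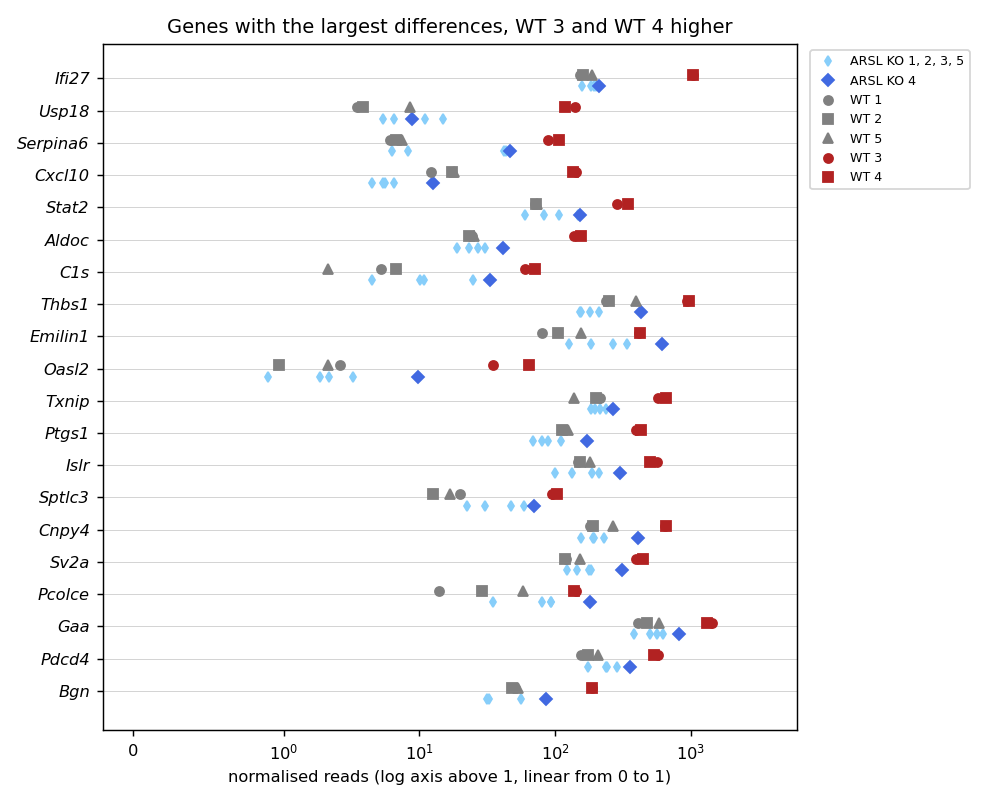
Normalised reads (horizontal, log axis above 1) in each library for the 20 named genes with the largest higher differences, grey for WT 1, WT 2 and WT 5, red for WT 3 and WT 4, and blue for KO. For Ifi27 and Usp18 the red points stand apart from all others, while for Emilin1 and Pcolce ARSL KO 4 lies at or beyond them.

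Single genes of other functions completed the largest higher differences. Serpina6, the corticosteroid carrier, had 88.6 and 107 normalised reads in WT 3 and WT 4 and 6.10, 6.78 and 7.40 in WT 1, WT 2 and WT 5. Outside the pair it lay below the limit for use, so it passed only through its level in the pair. Ptgs1, the prostaglandin-making COX-1, had 396 and 425 against 117, 112 and 124. Sptlc3, a subunit of the enzyme that begins sphingolipid synthesis, had 94.1 and 103 against 20.1, 12.6 and 16.9. Cnpy4 and Sv2a, the latter a membrane protein of secretory vesicles, were 3.04-fold and 3.22-fold higher. All of these were named as separated, so none overlapped between the sets.

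Glycolysis and its hypoxia-linked genes were higher in part. Of 24 tested members 9 were separated upward and 0 downward, 16 lay above without overlap, and the median difference was 0.52. Aldoc, an aldolase, had 137 and 155 normalised reads in WT 3 and WT 4 and 24.4, 23.2 and 25.4 in WT 1, WT 2 and WT 5, 5.99-fold higher. Slc16a3, the lactate exporter MCT4, had 193 and 184 against 70.6, 74.5 and 48.6. P4ha1 and Bnip3, given above, belong to this list as well. Vegfa, Ddit4, Bnip3l and Ero1a, which are known to be induced by hypoxia and are described with other lists, were separated upward as well. Other hypoxia-induced genes, also named after their values were seen, were not: Slc2a1, the glucose transporter GLUT1, differed by 0.08, Pdk1 by -0.02 and Adm by -0.21.

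Transcripts encoded by the mitochondrial genome were lower than in the other WT cultures. Of 12 tested members 4 were separated downward and 0 upward, 10 lay below without overlap and 1 above, and the median difference was -0.47. Mt-co1, a subunit of cytochrome c oxidase, had 16812 and 16001 normalised reads in the pair and 26782, 26736 and 28404 in the others, 1.66-fold lower. Mt-cyb, cytochrome b, had 11222 and 11151 against 17336, 18520 and 18134. Mt-nd2, a subunit of complex I, had 7676 and 7625 against 11709, 11212 and 12076. Pair and others were apart in these 3 genes by the rule that named them. Genes with a mitochondrial symbol took 4.59% and 4.47% of reads in WT 3 and WT 4, 6.26%, 6.36% and 6.41% in WT 1, WT 2 and WT 5, and 3.67% to 5.03% in the KO libraries. In this measure the pair lay within the range of the KO libraries and the other 3 WT libraries stood outside it. The nuclear genes of oxidative phosphorylation held 1 separated member of 66, a share below the 3.71% over all genes used, with a median of -0.14. It was Ndufa12, a subunit of complex I, with 20.8 and 22.9 in the pair and 75.8, 65.8 and 80.3 in the others.

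Genes of ribosome biogenesis were lower, and no tested member of the ribosomal protein list was separated. Of 62 tested genes of ribosome biogenesis 16 were separated downward and 0 upward, 51 lay below without overlap, and the median difference was -0.45. Ncl, nucleolin, the abundant nucleolar protein, had 769 and 800.2 normalised reads in WT 3 and WT 4 and 2076, 1833 and 1684 in WT 1, WT 2 and WT 5, 2.38-fold lower. Nop14, of the small-subunit processing complex, had 229.8 and 214 against 511, 508 and 520.1. Nop58, a core protein of box C/D snoRNPs, had 1107 and 999 against 2239, 2225 and 2054. WT 5 lay close to WT 1 and WT 2 in Nop14 and Nop58. Outside the list, Tcof1, treacle, a nucleolar factor of rRNA transcription, had 28.5 and 31.6 against 180.4, 144 and 128, 5.03-fold lower. Of 76 cytosolic ribosomal protein genes listed only 44 were tested. None of the 44 was separated, and their median was 0.02. The widest difference was that of Rpl32, -0.70, at 46.0 and 60.2 against 87.2, 119 and 119, a gene with many processed copies.

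Translation factors and splicing factors were lower in part. Of 31 translation factors 4 were separated downward and 1 upward, with a median of -0.30. Eef1d, of the elongation complex, had 1146 and 1296 normalised reads in the pair and 2204, 2489 and 2222 in the others. The initiation factor subunits Eif3j and Eif3d were 1.81-fold and 1.60-fold lower. Eif3f, another subunit of the same factor, was the higher one, with 865 and 865 against 595, 597 and 529. Of 47 splicing and hnRNP genes 13 were separated downward and 0 upward, with a median of -0.37. Snrpf, a core protein of spliceosomal snRNPs, had 629 and 681 against 1626, 1680 and 1653, 2.53-fold lower. Snrpa1, of the U2 snRNP, had 134 and 126 against 379, 399.7 and 266. The splicing factor Srsf1 had 453 and 538 against 1087, 1004 and 1104. WT 5 lay with WT 1 and WT 2 for Snrpf and Srsf1 and below them for Snrpa1.

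Protein folding in the cytosol and mitochondria and the proteasome were lower. Of 35 proteasome genes 10 were separated downward and 0 upward, 33 lay below without overlap, and the median difference was -0.53. Psmb7, a catalytic subunit, had 379 and 375 normalised reads in WT 3 and WT 4 and 715, 728 and 752 in WT 1, WT 2 and WT 5. Psmd11 and Psmc5, of the regulatory particle, were 1.80-fold and 1.78-fold lower. Of 29 heat shock and chaperone genes 9 were separated downward and 1 upward, with a median of -0.48. Hspe1, the lid of the mitochondrial chaperonin, had 328 and 362 against 1163, 1278 and 922. Hspd1, its barrel, had 953 and 997 against 2083, 1947 and 1927. Hspe1 has many processed copies, so its level is uncertain. Hsph1, a partner of HSP70, had 431 and 399.6 against 884, 871 and 737. The small heat shock protein Hspb1 was the higher member, with 86.4 and 90.8 in the pair and 9.59, 8.71 and 38.1 in the others, and here WT 5 lay between WT 1 and WT 2 and the pair.

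**Figure D4:**
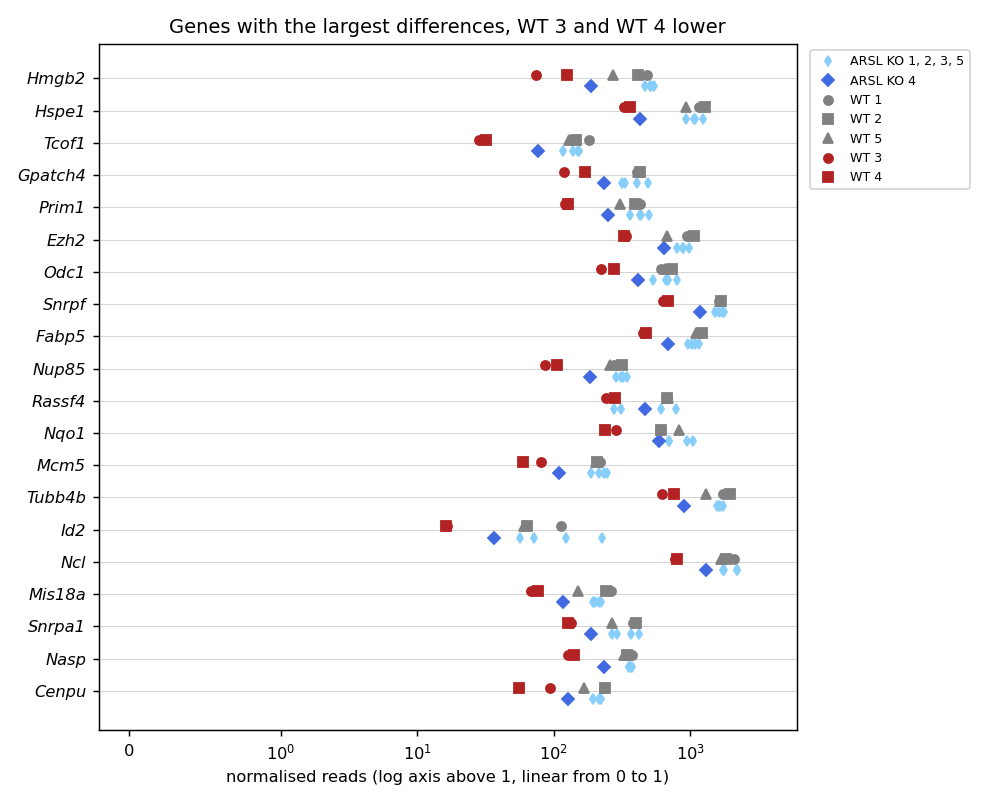
Normalised reads (horizontal, log axis above 1) in each library for the 20 named genes with the largest lower differences, with the same colours as for the higher genes. ARSL KO 4 lies between the red points and the other KO libraries in most of them, Rassf4 being an exception.

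Genes of amino acid and lipid supply went both ways. In the integrated stress response and amino acid list 3 of 36 were lower and 1 higher, beside 3.71% and 4.28% of all genes used. The median was 0.10, and it was 0.0081 without WT 3, 0.03 without WT 1 and 0.05 without WT 2. The lower members were Phgdh, the first enzyme of serine synthesis, with 116 and 122 normalised reads in WT 3 and WT 4 and 209, 194 and 282 in WT 1, WT 2 and WT 5, Gars1, the glycyl-tRNA synthetase (1.73-fold), and Shmt2, which makes mitochondrial glycine (1.55-fold). Ddit4, a stress-induced inhibitor of mTORC1, was the higher one, with 76.6 and 99.4 against 20.1, 18.4 and 21.1. Here WT 5 had the highest list mean of all 10 libraries, 0.122, against 0.0405 and 0.00197 in WT 3 and WT 4. The cholesterol synthesis list held 4 higher and 1 lower of 21, with a median of 0.37. Abca1, the cholesterol exporter, had 91.9 and 71.7 against 29.6, 16.5 and 21.1. Hsd17b7, of late sterol synthesis, had 198 and 239 against 116, 117 and 122. Srebf2, the main transcription factor of this pathway, had 813 and 863 against 488, 558 and 472. Idi1, of the isoprenoid steps, was lower, with 325 and 304 against 543, 584 and 506. Fatty acid and lipid droplet genes had 3 higher and 1 lower of 26, with a median of 0.15 (0.27 without WT 4). Scd2, a fatty acid desaturase, had 4661 and 4436 against 2207, 2102 and 1537. Lpin1, a phosphatidate phosphatase, and Me1, a source of NADPH, were 3.20-fold and 1.70-fold higher. The fatty acid carrier Fabp5 had 449 and 470.4 in the pair and 1197, 1206 and 1101 in the others, 2.54-fold lower.

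The signalling lists described next held 2 to 6 separated genes each. In BMP, Wnt, hedgehog and Notch signalling 3 of 18 were separated upward and 3 downward, with a median of 0.23. The lower ones were all Id genes, inhibitors of differentiation factors that BMP signalling induces. Id2 had 16.4 and 16.3 normalised reads in WT 3 and WT 4 and 112, 63.9 and 60.3 in WT 1, WT 2 and WT 5. Id1 had 106 and 97.5 against 263, 209 and 257, and Id3 had 12.0 and 14.3 against 55.8, 50.3 and 50.7. The higher ones were the Wnt receptor Fzd2, with 252 and 229 against 87.2, 103 and 109, the growth factor Gdf10 (1.79-fold) and the hedgehog receptor Ptch1 (1.58-fold). Of 15 genes of FGF and MAPK feedback 2 were higher, 0 lower, and the median was 0.33 (0.21 without WT 1). Both were ETS factors, Etv1 with 68.9 and 69.8 against 10.5, 18.4 and 16.9, and Etv5 with 41.6 and 36.3 against 14.8, 7.74 and 8.46. The mean of Etv5 in WT 1, WT 2 and WT 5, 10.3 normalised reads, was below the limit for use. Etv5 thus passed only through its level in the pair.

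Among 21 TGF-beta and YAP targets 3 were separated upward, 0 downward, with a median of 0.02 (0.07 without WT 4). Besides Thbs1 these were Ltbp3, which holds latent TGF-beta in the matrix, with 302 and 303 normalised reads in the pair and 136, 125 and 116 in the others, and Tgfb2, with 1530 and 1463 against 796, 778 and 801. Antioxidant genes went both ways, with 3 of 30 higher and 2 lower, beside 4.28% and 3.71% of all genes used, and a median of 0.0027. The lower ones were Nqo1, a quinone reductase, with 287 and 235 against 602, 613 and 819, and the thioredoxin reductase Txnrd1, with 539 and 560.2 against 1065, 1069 and 1024. Mgst2, a microsomal glutathione transferase, was higher, with 625 and 615 against 257, 236 and 284. Gstp1, a cytosolic one, had 1566 and 1462 against 644, 626 and 748, and Me1 was the remaining one. Of 19 p53 targets 2 were lower, Gtse1 and Tigar, 0 higher, and the median was -0.04. No gene of the 38 tested for the primary cilium was separated, their median was 0.11, and the widest difference was that of Tctn1, with 73.3 and 39.2 against 25.3, 35.8 and 17.97.

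The KO libraries were not used to form the sets and show how far the same genes varied in them. WT 3 and WT 4 lay beyond all 5 KO libraries, on the same side, in 341 of the 364 higher and 280 of the 315 lower genes, against 20.5% of all genes used above and 20.7% below. The separated genes were chosen for extreme values in these 2 libraries, so nothing is read from these counts. ARSL KO 4 was known from earlier results to score high on the first component of all 10 libraries, where it had 7.74, WT 3 and WT 4 had 28.3 and 27.2, and the other 7 lay between -15.2 and -2.8. It was above the other 4 KO libraries in 274 of the 364 higher genes, and in 26.8% of all genes used. It was below them in 272 of the 315 lower genes, and in 27.0% of all genes used. Its median deviation from the mean of the other KO libraries was 0.36 at the higher and -0.40 at the lower genes, against 0.0044 over all genes. Across the 8498 genes, which share the libraries and are not independent, its deviation had a Pearson r of 0.65 with the WT difference. The component score of ARSL KO 4 came from the same genes, so these counts and this r restate it in part and are a description. ARSL KO 5 had the opposite sign, with r of -0.50, and was the lowest KO library in 232 of the 364 higher genes (21.7% of all genes used) and the highest in 135 of the 315 lower genes (19.9%). ARSL KO 3 had -0.33, and ARSL KO 1 and ARSL KO 2 had 0.06 and -0.07. Deviations of the 5 KO libraries balance each other, so these values are not independent. By replicate number, ARSL KO 4 deviated in the direction of WT 4 and ARSL KO 3 against that of WT 3. The labels do not say whether a number marks a shared culture or day.

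**Figure D5:**
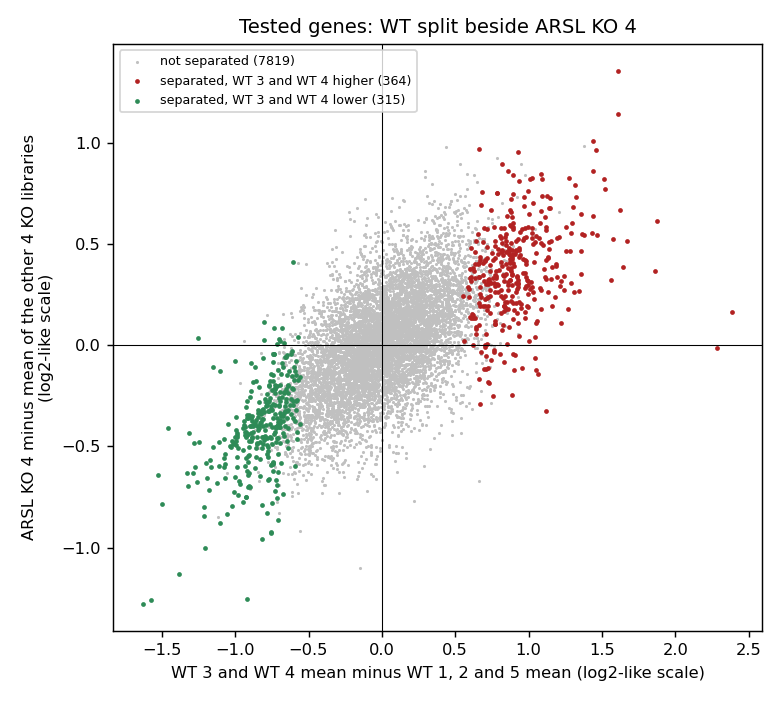
Each point is 1 of 8498 genes, with the WT 3 and WT 4 mean minus the WT 1, WT 2 and WT 5 mean on the horizontal axis and ARSL KO 4 minus the mean of the other 4 KO libraries on the vertical axis, both on the log2-like scale. The 364 higher genes (red) lie mostly above 0 and the 315 lower genes (green) mostly below it.

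By list, the median deviation of ARSL KO 4 was -0.37 for DNA replication, -0.28 for mitosis, -0.28 for the proteasome and -0.22 for ribosome biogenesis. It was 0.27 for cartilage matrix, 0.26 for quiescence genes and 0.21 for the lysosome. Emilin1 had 614 normalised reads in ARSL KO 4 and 126 to 336 in the other 4 KO libraries, and Thbs1 had 428 and 152 to 212. At the lower end Hmgb2 had 185 in ARSL KO 4 and 464 to 538 in the other 4, and Hspe1 424 and 927 to 1230. In these 4 genes ARSL KO 4 lay outside the other KO libraries on the same side as WT 3 and WT 4. Other genes of the WT pattern lay elsewhere in ARSL KO 4. Usp18 had 8.78 in ARSL KO 4 and 5.38 to 15.0 in the others, and Col2a1 had 2458 and 2174 to 3100. For Usp18 and Col2a1 ARSL KO 4 lay within the range of the other KO libraries. Ifi27 had 209 in ARSL KO 4 and 157 to 199 in the other KO libraries, far from the pair's level. Mitochondrially encoded genes and cholesterol synthesis had median deviations of opposite sign to the WT difference, 0.20 and -0.20. Judged by its gap to the nearest KO library as a fraction of the range of the list means, ARSL KO 4 stood apart in mitosis (0.792) and the proteasome (0.79), past the critical value of 0.71 for 5 values. The other lists named here did not pass that value.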

How the data were processed

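The authors deposited 1 table of 10184 genes in 10 mRNA-seq libraries, with values on a variance-stabilised, log2-like scale. Per the submitters' processing notes the tools were bcl2fastq, STAR 2.7.11a and HTSeq, with the rat build rn6. Of the tool behind the deposited values, the use of strand and the counting of shared reads, the notes and labels say nothing. A value of 4.42, the table's lowest, stands for 0 reads. Inverting the closed form of the transformation gave whole reads in 100.0% of values (tolerance 1e-06 reads), and normalised reads are these divided by the size factor. On the log2-like scale a difference understates the fold of weakly expressed genes.

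Libraries were grouped by genotype from the labels, and the WT sets follow the first principal component. Members, gene lists (44, with 1663 entries matched by symbol; 457 of 1591 distinct genes had no row), motifs and the rule for named genes were chosen with earlier results of these data known. Named genes were the 20 largest separated differences each way with a proper symbol, up to 3 separated members of each list each way or, with none, the widest, and 8 fixed cell cycle and matrix genes with a row. Because values chose the sets, no p-value was computed between them. The procedure was tested on simulated libraries with sets fixed in advance and changes larger than most of those seen here. That does not test a split chosen by the values. Promoters came from RefSeq, GRCr8, matched by Ensembl identifier or symbol for 6551 genes used (77.1%), too few for shares over separated genes. Python 3.11.15, numpy 2.4.6, pandas 2.3.3 and matplotlib 3.10.9 were used.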

Additional observations from a re-analysis of the deposited data

Results flagged for a closer look

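In the 5 KO libraries, ARSL KO 4 stood apart from the other 4 in the means of 6 gene lists, judged by its gap to the nearest library as a fraction of the whole range, for which the critical value is 0.71. The fraction was 0.792 for mitosis and cytokinesis, 0.79 for the proteasome, 0.777 for histones, 0.731 for heat shock and cytosolic chaperones and 0.724 for translation factors, in each of which ARSL KO 4 was the lowest. It was 0.782 for NF-kappa-B and inflammation, where ARSL KO 4 was the highest. In all, 76 groups of values were examined, and chance flags about 1 in 20. Groups of fewer than 4 libraries, such as WT 3 and WT 4, cannot be judged this way.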

How the results depend on the processing

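Counts of separated genes depend on the gap asked for. With a gap of 0.25 they were 958 higher and 1012 lower, with a gap of 1 they were 44 and 17, and with no overlap at any gap 2338 and 2438, against 364 and 315 as reported. On log2 of normalised reads plus 1 they were 630 and 600. With the nearest libraries at least 2-fold apart in normalised reads, a rule chosen after seeing the data, they were 158 and 81, of which 144 and 67 were among those reported. Leaving out 1 WT library at a time gave 406 to 540 higher and 347 to 578 lower genes, the lower count being 499 without WT 3, 578 without WT 4 and 519 without WT 5. The reported genes were kept in each of these, as they must be with fewer libraries to separate. Filters, median centring and quantile normalization kept both counts within 1.5 times. The share of separated genes in which ARSL KO 4 was the extreme KO library on the side of WT 3 and WT 4, 80.4%, was 74.4 to 78.8% with 1 WT library left out, 76.0% without WT 3 and 74.4% without WT 4. Under alternatives, 304 values of list medians and 1088 of gene differences were computed over all lists and named genes. No list median reported as at least 0.25 in size changed sign, and no difference of a separated gene did. Of smaller ones, 3 list medians did so, in 10 values, those of ribosomal proteins (0.02, to -0.02 without WT 1), p53 targets (-0.04, to 0.03 without WT 5) and antioxidant genes (0.0027, to -0.05 without WT 5), as did 2 genes. The interferon median was above that of cartilage matrix on log2 of normalised reads plus 1 (1.33 and 0.98) and with quantile normalization (0.81 and 0.75). It was also above without WT 1 (0.884 and 0.835) and without WT 3 (0.878 and 0.851). The reported order was the opposite (0.81 and 0.84). No paired analysis was possible because the comparison lies within WT and has no test. Depth, 2118490 to 2591819 reads per WT library, limits weakly expressed genes, and 2 libraries against 3 cannot show how often such a split arises.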

Other observations

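Gene families were also read by the stem of their symbol, for stems with at least 10 genes used, a grouping made after seeing the data. The Psmd genes of the proteasome had a median difference of -0.51 between WT 3 and WT 4 and the other WT libraries. Of 13 Psmd genes 12 lay below without overlap, beside 28.7% of all genes used, and 3 were separated downward, beside 3.71%. The Timm genes, which import proteins into mitochondria, had -0.49, with 8 of 11 below without overlap and 1 separated. The mitochondrial ribosomal proteins were lower as well, with -0.35 for the 22 Mrps genes and -0.31 for the 39 Mrpl genes. Of these, 15 and 27 lay below without overlap, and 2 and 6 were separated. Genes with the stems Rps and Rpl, not all of which encode cytosolic ribosomal proteins, had medians of -0.05 and 0.03 over 46 and 51 genes, with 3 Rps genes separated downward and 1 Rpl gene upward. The Nup genes of the nuclear pore had -0.34 over 19 genes, 10 of them below without overlap, and 4 of those separated.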
